A study of Mus musculus with 6 samples.

Results

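Troponin is the calcium switch of striated muscle, and 4 genes for its subunits were among the 2031 genes of the deposited table. They were found as protein-coding genes whose symbol begins with Tnni, Tnnc or Tnnt and ends in a single digit. The 4 genes were Tnnt2, Tnni1, Tnni3 and Tnnt1. The other 4 genes of the family of 8, Tnnc1, Tnnc2, Tnni2 and Tnnt3, were not in that table and were not analysed here, so no troponin C gene could be described. The study measured poly-A RNA of differentiated progeny of J1, an embryonic stem cell line from 129S4/SvJae mice. All cells were put through hanging-drop culture to form embryoid bodies, which are cell aggregates, over 3 days and were directed towards heart muscle. Cells of the NC group (3 libraries) grew in a conventional incubator, those of the MF group (3 libraries) in 1 that applied a static magnetic field. No source used here gives the field strength, the exposure time or the collection day. All cells came from 1 line, and each library holds a mixture of cell types.

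Every gene of the table had already been chosen by the authors for a difference between MF and NC on these same 6 libraries (in the authors' deposited table, the largest adjusted p is 0.0499 and the smallest change, in either direction, 1.001 log2 units). The direction and the call of each troponin gene between the groups are therefore a description and not independent evidence. The choice of genes did not fix how the 4 genes differed from each other or which library of a group was highest. It did bear on the spread within a group, on which an adjusted p also depends. The libraries held between 14929232 and 19176383 counts, of which the table took 5.68% to 10.4%. MF replicate 2 stood apart from the other exposed libraries. It was the lowest MF library for 82.8% of the 1052 tested genes that were higher in MF and the highest for 89.8% of the 599 that were lower, so group results are also given without it. Among the controls, NC replicate 2 was the highest library for 80.8% of the 599 genes lower in MF. Results without both replicate 2 libraries are given with the alternatives.

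A troponin complex has a calcium-binding subunit (troponin C), an inhibitory subunit (troponin I) and a subunit that ties the complex to tropomyosin on the actin filament (troponin T). When calcium binds troponin C, the inhibition by troponin I is relieved and myosin can pull on actin. Each subunit has several genes that are used in different muscles and at different ages. Tnnt2 encodes cardiac troponin T and Tnni3 cardiac troponin I. Tnni1 encodes the slow skeletal troponin I, which the embryonic heart also uses before Tnni3 takes its place. Tnnt1 encodes slow skeletal troponin T.

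The 4 genes lie in 2 neighbouring pairs of 1 troponin I and 1 troponin T gene each, given here on mm10, the build named in the submitters' processing notes. Tnni1 (chromosome 1, 135779434 to 135810989) and Tnnt2 (chromosome 1, 135836354 to 135852260) are both on the plus strand, 25364 bases apart, with 1 protein-coding gene, Lad1, between them in GENCODE M21. Tnnt1 (chromosome 7, 4504570 to 4516382) and Tnni3 (chromosome 7, 4518305 to 4524229) are both on the minus strand, 1922 bases apart, with 0 protein-coding genes between them. The pair on chromosome 1 was higher in MF for both genes, whereas in the pair on chromosome 7 the troponin I gene was higher and the troponin T gene lower. Tnni3 overlaps the next gene, Dnaaf3, over 1297 bases on the same strand, and 86 bases are exonic in both, so reads there cannot be assigned to either.

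The sequences before the starts of the 4 genes are shown because neighbours in a pair did not always move together. Each runs 5′ to 3′ on the gene's own strand and comes from the RefSeq promoter table for GRCm38.p6, which held all 4 genes. It covers up to 250 bases before the first RefSeq start, without bases that GENCODE M21 annotates as exon. For Tnni1, Tnni3 and Tnnt1 that start, and the stretch shown before it, lie inside the gene span given above. Capitals mark matches to GATAA (GATA factors), CATTCC (the MCAT element bound by TEAD factors) and CANNTG (the E-box), searched on both strands; no 2 of the marked matches overlap.

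Tnnt2, chr1:135836084-135836333, plus strand: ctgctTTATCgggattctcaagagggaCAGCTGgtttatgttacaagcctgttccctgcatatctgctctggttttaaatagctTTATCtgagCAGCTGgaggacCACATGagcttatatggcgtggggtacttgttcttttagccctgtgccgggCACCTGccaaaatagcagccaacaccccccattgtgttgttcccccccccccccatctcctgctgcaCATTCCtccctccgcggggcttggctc

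Tnni1, chr1:135799171-135799401, plus strand: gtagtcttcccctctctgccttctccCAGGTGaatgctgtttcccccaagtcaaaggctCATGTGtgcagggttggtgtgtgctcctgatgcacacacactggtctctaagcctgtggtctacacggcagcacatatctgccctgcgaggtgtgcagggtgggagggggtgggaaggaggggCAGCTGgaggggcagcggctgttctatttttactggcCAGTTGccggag

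Tnni3, chr7:4522529-4522694, minus strand: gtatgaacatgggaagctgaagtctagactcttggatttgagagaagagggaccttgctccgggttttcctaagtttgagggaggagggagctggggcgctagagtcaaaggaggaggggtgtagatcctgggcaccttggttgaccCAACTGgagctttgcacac

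Tnnt1, chr7:4516005-4516225, minus strand: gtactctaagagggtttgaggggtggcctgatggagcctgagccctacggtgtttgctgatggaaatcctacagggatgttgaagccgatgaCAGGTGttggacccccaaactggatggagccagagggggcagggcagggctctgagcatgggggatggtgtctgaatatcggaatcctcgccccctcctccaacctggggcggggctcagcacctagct

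The full window of 250 bases before Tnnt2 held 2 matches to GATAA, both on the reverse strand, 1 match to CATTCC that began 27 bases before the start, and 4 to CANNTG. Tnni1 also had 4 matches to CANNTG, but 0 to GATAA and 0 to CATTCC. Tnni3 had 1 match to CANNTG, 19 bases before the start, and 1 to the T-box letters GGTGTGA at 200 bases, beyond the stretch shown. Tnnt1 had 1 match to CANNTG and the letters TATAAA from 30 bases before its start, mostly beyond the stretch shown. Matches to AAGTG (NK2 factors) and to the MEF2 and CArG elements, searched on both strands, numbered 0 in the 4 windows. Of all 32851 RefSeq windows of this length, 22.6% held GATAA, 12.6% CATTCC, 66.2% CANNTG, 12.4% TATAAA, 3.33% GGTGTGA, 40.7% AAGTG, 2.92% MEF2 and 1.47% CArG. The matches describe letters, not bound sites.

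Cardiac troponin T was higher in every MF library than in every NC library. Such a gap between the groups was the rule in the table, with 91.6% of the 1052 tested genes higher in MF and 94.2% of the 599 lower in MF showing no overlap. Tnnt2 stood at 0.717, 0.424 and 1.81 FPKM (counts scaled to gene length and library total) in NC replicates 1, 2 and 3. In MF replicates 1, 2 and 3 it stood at 19.1, 5.55 and 8.99 FPKM, from 2841, 723 and 1134 counts. The lowest MF library lay 3.06-fold above the highest NC library, the widest gap among the 3 troponin genes that were higher in MF. edgeR's quasi-likelihood test gave Tnnt2 a log2 fold change of 3.51 (SE 0.67, adjusted p = 0.0111), or 11.4-fold. Without NC replicate 3, the highest control, the fold was 19.6, and without MF replicate 1, the highest exposed library, it was 7.38. Without MF replicate 2 it was 14.3 (adjusted p = 0.00515). Without MF replicate 3 the adjusted p for Tnnt2 was 0.0559, in a fit that called 0.727% of the table.

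Slow skeletal troponin I, the form of the embryonic heart, had the widest spread among the exposed libraries. Tnni1 stood at 0.781, 0.776 and 2.57 FPKM in NC replicates 1, 2 and 3, and at 26.5, 3.37 and 19.1 FPKM in MF replicates 1, 2 and 3. MF replicate 2 was thus 1.31-fold above NC replicate 3, and 7.86-fold below MF replicate 1. The fold change by edgeR's quasi-likelihood test was 11.9 (log2 3.57, SE 0.79, adjusted p = 0.0142). It was 20.9 without NC replicate 3 and 16.6 without MF replicate 2 (adjusted p = 0.00403), and without MF replicate 3 the adjusted p was 0.0631.

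Cardiac troponin I ran the other way among the exposed libraries. Tnni3 stood at 0.743, 0.692 and 1.17 FPKM in NC replicates 1, 2 and 3. In MF it was highest in replicate 2, at 8.19 FPKM from 284 counts, and stood at 3.21 and 1.61 FPKM in replicates 1 and 3, from 127 and 54 counts. MF replicate 3 lay 1.38-fold above the highest control. The fold change by edgeR's quasi-likelihood test was 4.98 (log2 2.32, SE 0.68, adjusted p = 0.0236), and 2.77 without MF replicate 2 (adjusted p = 0.0347). The adjusted p was 0.0539 without NC replicate 1 and 0.0604 without MF replicate 3. With TMM or median-of-ratios scaling the adjusted p was 0.0744 or 0.177. Both scalings were set on this table, in which every gene had been chosen for a difference between the groups.

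Slow skeletal troponin T was the 1 troponin gene that was lower in MF. Tnnt1 stood at 4.38, 4.65 and 4.86 FPKM in NC replicates 1, 2 and 3. This was the narrowest spread of the 4 genes, with the highest control 1.11-fold above the lowest. Its change was close to the smallest in the authors' choice (1.001 log2 units), where a wide spread would have made the choice less likely. In MF replicates 1, 2 and 3 it stood at 1.73, 3.11 and 1.81 FPKM, so the groups did not overlap, as for 94.2% of the tested genes lower in MF, and MF replicate 2 lay nearest to the controls. The fold change by edgeR's quasi-likelihood test was 2.09 lower in MF (log2 -1.06, SE 0.47, adjusted p = 0.0484), close to the threshold of 0.05. The adjusted p was above that threshold without NC replicate 1 (0.108), NC replicate 2 (0.0742), NC replicate 3 (0.131), MF replicate 1 (0.180) or MF replicate 3 (0.150), and it was 0.0146 without MF replicate 2 (fold 2.61). The authors' deposited table gives Tnnt1 an adjusted p of 0.0175, against 1.82e-07 for Tnnt2, 1.38e-05 for Tnni1 and 0.00285 for Tnni3.

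**Figure D1:**
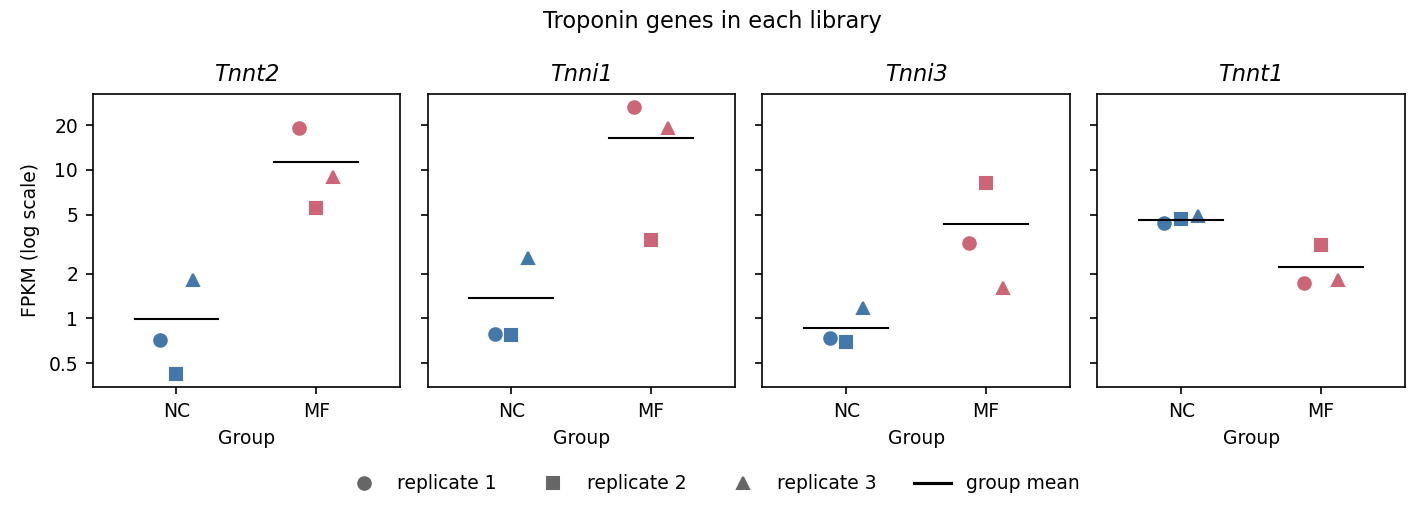
FPKM on a log axis of the 4 troponin genes in each library; markers show the replicate number, lines the group mean, blue the NC and red the MF group (3 libraries each). Tnnt2, Tnni1 and Tnni3 were higher and Tnnt1 lower in every MF library than in any NC library, a gap that 91.6% of tested genes higher and 94.2% of those lower in MF also had; within MF, replicate 2 is lowest for Tnnt2 and Tnni1 and highest for Tnni3 and Tnnt1.

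All 4 genes averaged 0.5 FPKM or more and were tested; 3 were called higher and 1 lower in MF. The same test called 97.5% of the 1651 genes tested in the table, 62.1% as higher and 35.4% as lower, so 4 calls of 4 troponin genes are what the table gives for nearly any gene. The median log2 fold change was 2.91 over the 4 genes and 1.22 over the 1651. TMM scaling turned the table's split of 1026 genes called higher and 584 lower into 291 and 589, and median-of-ratios scaling into 158 and 507; the median of the table moved to 0.52 and 0.16. The folds of the troponin genes moved with it: under TMM and median-of-ratios scaling Tnnt2 was 7.06-fold and 5.45-fold higher, Tnni1 7.11-fold and 5.33-fold higher, Tnni3 3.31-fold and 2.81-fold higher, and Tnnt1 3.32-fold and 4.08-fold lower. Relative to those medians they moved less: Tnnt2 lay 2.29, 2.30 and 2.28 log2 units above the table's median with library totals, TMM and median-of-ratios scaling, and Tnnt1 lay 2.28, 2.25 and 2.19 units below it (-2.28, -2.25 and -2.19).

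**Figure D2:**
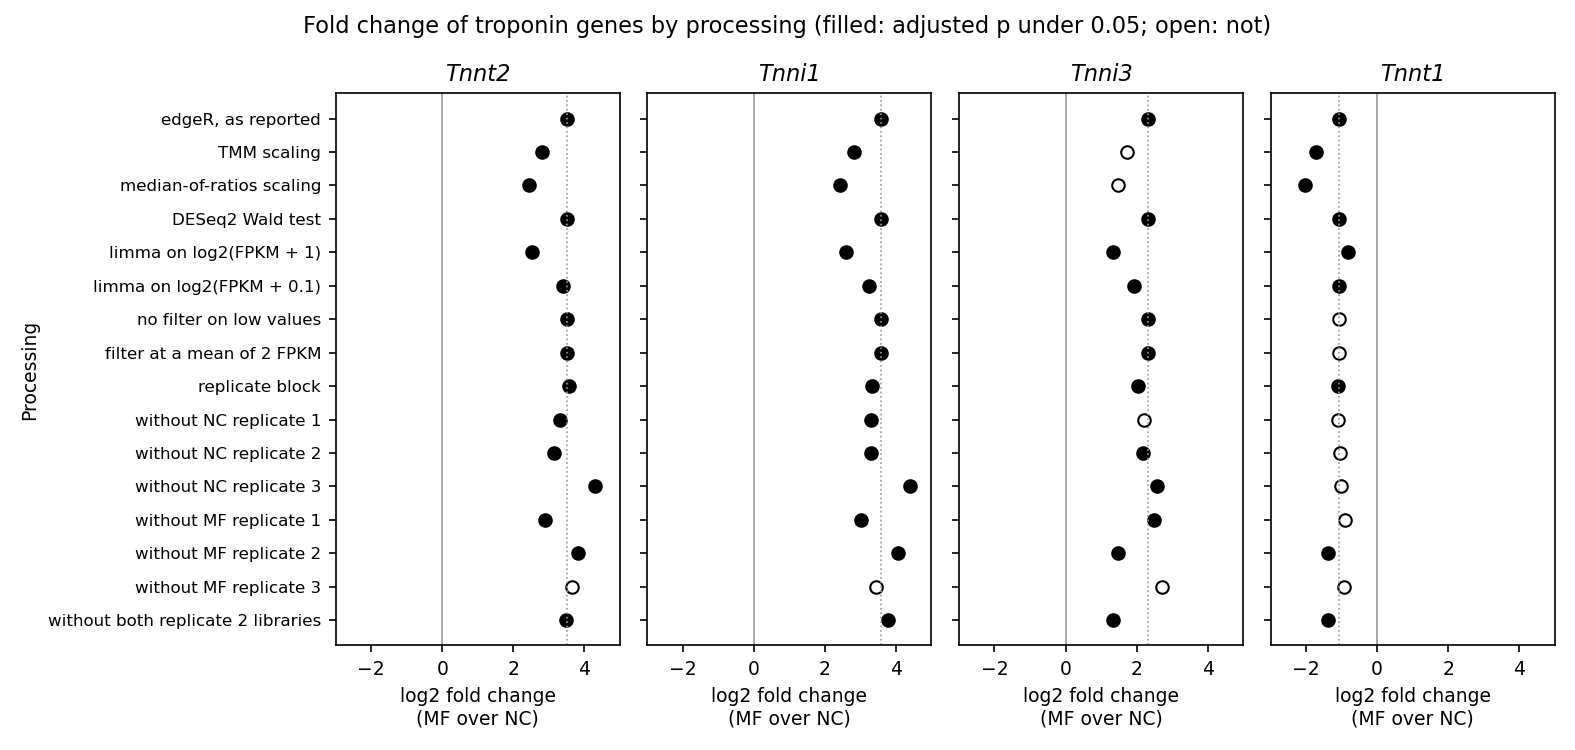
Log2 fold change (MF over NC) of the 4 troponin genes under each processing; the solid line marks 0 and the dotted line the reported value, filled circles have an adjusted p under 0.05. Every circle for Tnnt2, Tnni1 and Tnni3 is above 0 and every circle for Tnnt1 below 0, while Tnnt1 has the most open circles. The choice of genes favoured a kept direction: 63.7% of the 1651 tested genes were higher in MF as reported and without any single library.

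The make-up of troponin T differed between the groups by construction, since Tnnt1 was lower and Tnnt2 higher in MF. Tnnt1 made up 85.9%, 91.6% and 72.8% of the summed FPKM of both genes in NC replicates 1, 2 and 3. In MF replicates 1, 2 and 3 its share was 8.29%, 35.9% and 16.8%. In FPKM the slow skeletal form thus led in all 3 controls and the cardiac form in all 3 exposed libraries. The lead in NC replicate 3 depended on the gene length used, as described below. Exact (Clopper-Pearson) 95% intervals of these shares, which cover counting error alone, ran from 68.4% to 76.8% in NC replicate 3 and from 31.3% to 40.5% in MF replicate 2, the libraries of either group nearest to each other.

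The make-up of troponin I did not follow the groups. Tnni3 made up 48.8%, 47.1% and 31.3% of the summed FPKM of Tnni3 and Tnni1 in NC replicates 1, 2 and 3. In MF replicates 1 and 3 it made up 10.8% (95% interval 9.12% to 12.7%) and 7.78% (5.92% to 9.98%), and in MF replicate 2 it made up 70.8% (66.9% to 74.5%). The 3 exposed libraries therefore lay on both sides of the controls, further apart than counting error. The log2 ratio of Tnni3 to Tnni1, with 0.1 FPKM added to each, was -0.43 ± 0.56 in NC and -1.75 ± 2.61 in MF (SD, n = 3), a difference of -1.32 (exact permutation test over libraries, two-sided, p = 0.4). Single exposed libraries set its size: the difference was -2.82 without MF replicate 2 (exact permutation p = 0.2), -0.69 without MF replicate 1 and -0.45 without MF replicate 3 (both p = 0.8). With 3 against 3 libraries that test cannot go below 0.1, so neither it nor the 3 ratios below could pass 0.05. With 1 library left out the test cannot go below 0.2. That was its p without MF replicate 2, where the groups did not overlap in this ratio.

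**Figure D3:**
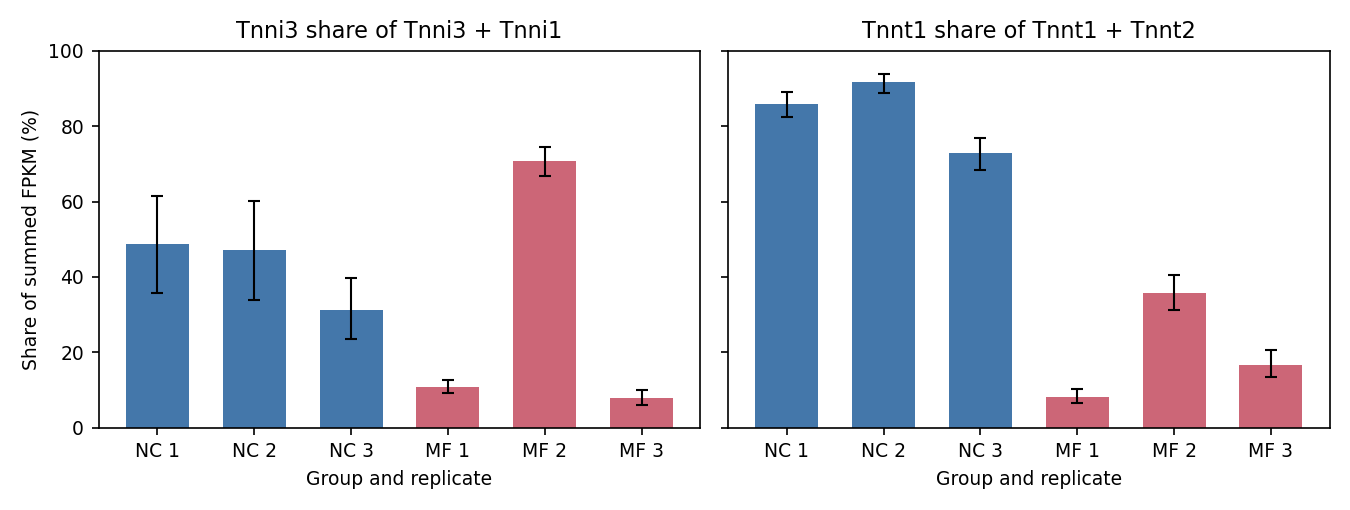
Share of summed FPKM (%) that Tnni3 takes of both troponin I genes (left) and Tnnt1 of both troponin T genes (right), per library; error bars are exact 95% intervals for counting error, blue NC and red MF. Tnnt1 shares lie between 72.8% and 91.6% in NC and between 8.29% and 35.9% in MF, whereas Tnni3 shares in MF lie both below and above those in NC.

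Cardiac troponin T alone, set against both troponin I genes, overlapped between the groups. The log2 ratio of Tnnt2 to the sum of Tnni1 and Tnni3 was -1.19 ± 0.34 in NC and -0.96 ± 0.29 in MF (SD, n = 3; exact permutation p = 0.6), and in MF replicate 2 it was -1.05. Its difference of 0.23 was 0.04 without NC replicate 2 and 0.07 without MF replicate 1. So the library with the unusual troponin I make-up had a ratio of cardiac troponin T to total troponin I between those of the other exposed libraries, -0.63 and -1.19. Against Actc1, the cardiac alpha-actin that troponin sits on, Tnnt2 stood at -4.50 ± 0.74 in NC and -3.66 ± 0.27 in MF on the log2 scale (exact permutation p = 0.1, the smallest possible). The groups did not overlap in that ratio, whose difference was 0.83 and fell to 0.41 without NC replicate 1 and 0.01 with 1 FPKM added. Against Myh6, the alpha cardiac myosin heavy chain, Tnnt2 stood at -0.44 ± 0.70 in NC and -0.82 ± 0.14 in MF (exact permutation p = 0.5). That difference of -0.38 was -0.03 without NC replicate 3, -0.73 without NC replicate 2 and -0.57 with 1 FPKM added (exact permutation p = 0.1). Adjusted over the 4 ratios, the p-values were 0.6, 0.6, 0.4 and 0.6 in the order given.

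The order of the genes by level depended on the length used. In FPKM the controls held most Tnnt1 (4.63 ± 0.244), followed by Tnni1 (1.37 ± 1.03), Tnnt2 (0.985 ± 0.733) and Tnni3 (0.868 ± 0.262). The last 3 did not differ beyond their spread between libraries, although Tnni1 was second within each of the 3 controls. The exposed cells held Tnni1 at 16.3 ± 11.8, Tnnt2 at 11.2 ± 7.05, Tnni3 at 4.34 ± 3.43 and Tnnt1 at 2.21 ± 0.773 FPKM (SD, n = 3), where no neighbours in the order differed beyond their spread. The gene length behind these values is the union of all annotated exons, which for Tnnt2 is 7752 bases, 6.46 times the 1200 bases of its longest principal transcript in GENCODE M21. For Tnni1, Tnni3 and Tnnt1 the same quotient was 3.13, 2.26 and 2.15, so FPKM sets Tnnt2 lower than its relatives. Scaled to the principal transcript in place of the exon union, Tnnt2 had the highest mean in MF at 72.5 ± 45.5. Tnni1 (51.1 ± 37.0), Tnni3 (9.81 ± 7.77) and Tnnt1 (4.75 ± 1.66) followed. Tnnt2 and Tnni1 did not differ there beyond their spread, and in MF replicate 3 Tnni1 led, at 59.7 against 58.1. In NC the mean of Tnnt2 then came second at 6.36 ± 4.73 to Tnnt1 at 9.93 ± 0.523. Tnnt2 led in NC replicate 3, at 11.7 against 10.4. The Tnnt1 share of troponin T was then 67.0%, 78.4% and 47.1% in NC replicates 1, 2 and 3 in place of the shares above. In NC replicate 3 the leading form of troponin T therefore changed with the length. Folds between the groups do not depend on the length.

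In MF replicate 2 most listed muscle genes were low among the exposed libraries, as most genes of the table that were higher in MF were. The 25 listed genes of the sarcomere and of calcium delivery include the 4 troponin genes. On the log2 scale with 0.1 FPKM added, 20 of the 25 were lower in MF replicate 2 than the mean of MF replicates 1 and 3. The 5 that were higher were Pln, Myl2, Tnni3, Tcap and Tnnt1. Tcap, which encodes telethonin of the Z-disc, lies outside the rule for named genes and is given to complete the count. Pln encodes phospholamban, the brake on the calcium pump of heart muscle, and its FPKM was 1.70 in MF replicate 2, from 79 counts, where MF replicates 1 and 3 had 4 counts each. Myl2, the ventricular regulatory light chain of myosin, was at 15.6 FPKM there, above 8.58 and 1.70 in MF replicates 1 and 3. At the other end Myl7, the atrial regulatory light chain, was at 11.7 FPKM in that library, far under the 288 and 129 of the other exposed libraries and within the NC range of 10.7 to 24.3. Myh7, the beta cardiac myosin heavy chain, stood at 2.23 FPKM in MF replicate 2, just below NC replicate 3 at 2.29. Tnni1 was the second lowest of the 25 (-2.70) and Tnni3 the third highest (1.80), while Tnnt2 was in the middle (-1.23). Of the tested genes higher in MF, 82.8% were lowest among the exposed libraries in MF replicate 2, and 8.37% peaked there, as Tnni3 did. Tnnt1 was lower in MF, and 89.8% of the tested genes lower in MF also peaked in that library. The 25 genes were not tested against these shares.

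**Figure D4:**
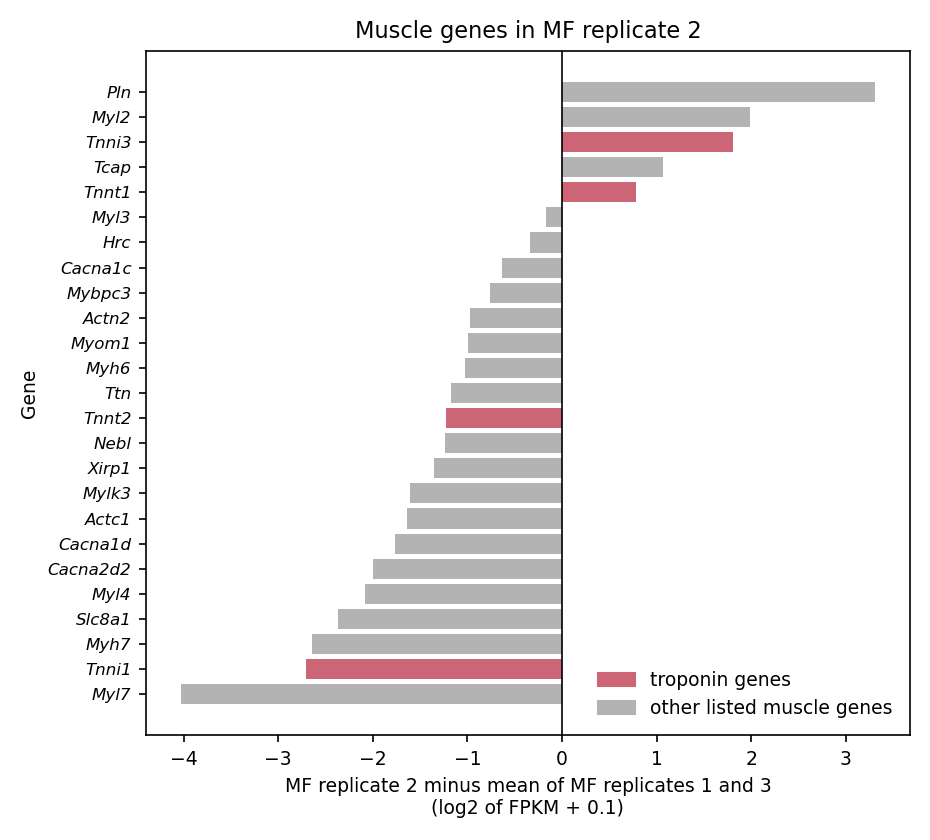
Difference between MF replicate 2 and the mean of MF replicates 1 and 3 (log2 of FPKM + 0.1) for the 25 listed muscle genes of the table; red bars are troponin genes and grey bars the others. Tnni3 (1.80) and Tnnt1 (0.78) lie above 0 with Pln, Myl2 and Tcap, and Tnni1 (-2.70) and Tnnt2 (-1.23) below it.

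The thin filament around troponin was thinly represented in the table. Of 17 listed partners 3 were present, and all 3 were higher in MF: Actc1, Nebl, which encodes the thin filament protein nebulette, and Xirp1, an actin-binding protein of muscle. Both that were tested rose, Actc1 5.81-fold and Nebl 6.02-fold by edgeR's quasi-likelihood test (adjusted p = 0.0197 and 0.0165), while Xirp1 was below the filter. The tropomyosins Tpm1 to Tpm4, to which troponin T binds, were not in the table and were not analysed here. Of 14 listed genes of the thick filament, titin and the Z-disc 12 were present. All 11 that were tested rose, with a median log2 fold change of 2.93. The median of the 4 troponin genes was 2.91, but over values from -1.06 for Tnnt1 to 3.57 for Tnni1. The same test called 97.5% of the table, 62.1% as higher in MF, and neither list was tested against these shares.

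Genes that deliver calcium to troponin were present in 6 of 16 cases and all 6 were higher in MF. The 3 that were tested rose: Slc8a1, the sodium-calcium exchanger, Hrc, a calcium-binding protein of the sarcoplasmic reticulum, and Cacna2d2, a calcium channel subunit. Hrc was the steadiest of these, at 4.55, 3.64 and 4.72 FPKM in MF replicates 1, 2 and 3 against 0.523, 0.919 and 1.41 in NC replicates 1, 2 and 3. Of 16 listed transcription factors that act on cardiac muscle genes 9 were present, and all 9 rose, with a median log2 fold change of 2.84. Each of the 9 was lowest among the exposed libraries in MF replicate 2, as Tnnt2 and Tnni1 were and Tnni3 was not. MF replicate 2 was also the lowest exposed library for 82.8% of the tested genes higher in MF. Gata6, which binds GATA elements, stood at 25.9, 2.19 and 23.3 FPKM in MF replicates 1, 2 and 3, and MF replicate 2 lay within the NC range of 0.981 to 2.93. Mef2a, which binds MEF2 elements, stood at 4.53, 2.65 and 4.78 FPKM in the same libraries and did not overlap with NC, whose highest library was at 2.27. The same test called 97.5% of the table, 62.1% as higher in MF, and no list was tested against these shares.

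The muscle type that the troponins belong to was compared with its markers. Of 11 listed cardiomyocyte markers 9 were in the table and all were higher in MF, where 63.2% of the whole table was higher; their summed level ran from 23.9 to 44.1 FPKM in NC and from 62.7 to 411 FPKM in MF. Of 14 skeletal muscle markers 2 were in the table, and both fell, as Tnnt1 and 35.4% of all tested genes did: Mylpf, the fast skeletal regulatory light chain, and Myh3, the embryonic myosin heavy chain. Their summed level ran from 24.6 to 61.4 FPKM in NC and from 2.63 to 13.0 FPKM in MF. Among the controls Mylpf ranged from 23.7 to 59.4 FPKM, with NC replicate 2 on top, whereas Tnnt1 was nearly level. Smooth muscle markers, 7 listed, had 0 members in the table. Markers of other cells were also in the table. The 7 fibroblast and mesenchyme markers in the table (of 8 listed) all rose, and their sum ran from 86.6 to 241 FPKM in NC and from 203 to 1077 in MF, with overlap between NC replicate 1 and MF replicate 2. Of the 5 endothelial markers (of 7 listed), Cdh5, Kdr, Cd34 and Emcn rose and Pecam1 fell, and none of the 5 overlapped between the groups. Neither did 91.6% of the tested genes higher and 94.2% of those lower in MF. The sum of the 5 markers ran from 12.4 to 42.8 FPKM in NC and from 21.9 to 41.3 in MF. The overlap of the sums came with Pecam1, at 38.2 FPKM in NC replicate 2. The 4 pluripotent cell markers (of 10) all fell, and their sum ran from 274 to 750 FPKM in NC and from 65.5 to 185 in MF. Single markers listed at 0 were Pln in NC replicates 1 and 2 and the fibroblast marker Lum in NC replicate 2. The part of these cells in the troponin values was not tested, and in such bulk libraries more cells of a type and more RNA per cell cannot be told apart.

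The genes whose levels ran most like each troponin gene over the 6 libraries were taken from 960 other protein-coding genes that averaged 2 FPKM or more, by Pearson's r of log2(FPKM + 0.1). These are descriptions: the libraries fall into 2 groups on which all genes were chosen. For Tnnt2 the closest were C1ql2, Irx3, Tgm2, Plbd1 and Smoc2 (r from 0.993 to 0.998). For Tnni1 they were Arrdc3, Popdc2, Hand2, Bmp4 and Fzd4 (0.991 to 0.998), of which Hand2 is a regulator of the forming heart and Popdc2 a membrane protein of muscle. For Tnnt1 they were Siah1b, Recql4, Eomes, Nhp2 and Mtfp1 (0.993 to 0.997), genes of other functions than muscle; Eomes is a T-box factor of early mesoderm and endoderm, and Nhp2 a component of small nucleolar ribonucleoproteins. Tnni3 had fewer close companions, with 8 genes above an r of 0.9 (0.833% of the 960), against 405 (42.2%) for Tnnt2, 350 (36.5%) for Tnni1 and 210 (21.9%) for Tnnt1. Its closest were Myl2 (0.950), Mb (0.947), Gm648 (0.938), Wnt5b (0.936) and Lhx2 (0.928). Mb encodes myoglobin, the oxygen-binding protein of heart and oxidative muscle, with 25.4 FPKM in MF replicate 2 and 2.17 and 1.24 in the other exposed libraries.

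Deviations from the group means, which leave the difference between the groups out, gave other companions for some members. C1ql2 and Irx3 were again among the 5 closest to Tnnt2, with Rbm24, a regulator of muscle splicing, Tcta and Dio3. Arrdc3 was again the closest to Tnni1, followed by Mmp15, Plxna2, Prdm6 and Plvap, and Eomes was the closest to Tnnt1, followed by Uchl3, Rhebl1, Mt3 and Hmx1. For Tnni3 the 5 closest were Coprs, Npm3, Snrnp25, Ddx39 and Snrpf (r from 0.956 to 0.996), all of them lower in MF than in NC while Tnni3 was higher. Npm3 stood at 35.2, 50.2 and 27.5 FPKM in MF replicates 1, 2 and 3, in the same order as Tnni3, and between 72.4 and 80.9 FPKM in NC. Among the exposed libraries Tnni3 thus shared its order with genes that moved the opposite way between the groups. A peak in MF replicate 2 was the rule for such genes, with 89.8% of the tested genes lower in MF highest there.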

How the data were processed

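The deposited files give 6 libraries over the same 2031 genes. Per the file headers, each gene has a raw count, a normalized signal (from the values, the count over 1 size factor per library) and an FPKM. The deposited comparison of the authors adds a log2 fold change and a p-value, raw and adjusted. Per the submitters' processing notes, reads were handled with HISAT2 2.0.5, featureCounts and build mm10. Settings, strand use in counting and the tool of the authors' comparison were not given in the sources used here. Library totals recovered from count, gene length and FPKM lay between 14929232 and 19176383, and every troponin value rests on 23 or more counts. Intervals cover counting error alone. The deposited genes took 5.68% to 10.4% of these totals, and 48 rows without a gene name (0.0134% to 0.0390%) stayed out of the tests.

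Genes with a name that averaged 0.5 FPKM or more (1651) were tested with edgeR 4.0.16 (R 4.3.3, quasi-likelihood, group as the one term, two-sided, recovered totals as library sizes), with Benjamini-Hochberg adjustment over those 1651 genes. Errors over the genome are not controlled by it, since the authors had chosen the genes on these libraries. Ratios were tested with exact permutation in SciPy 1.17.1. The fit was tested on simulated data. Limma 3.58.1, DESeq2 1.42.0, other scalings and filters, a block for the replicate number and leaving out single libraries were alternatives. Adjustment over the 19069 tests recovered from the authors' p-values was another; its combination with DESeq2 or the block, the isoform shares, the transcript lengths and leaving out both replicate 2 libraries were chosen after seeing the data. The members and lists were chosen with earlier results of these data known. Every troponin gene was named; of each list up to 8 members by mean FPKM could be named, and the 5 closest genes by correlation.

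Libraries with the same number deviated together from their group means (r = 0.37, 0.56 and 0.34 for replicates 1, 2 and 3) and were taken as pairs for the block; the labels do not say what a number shares, and NC replicate 3 correlated more with MF replicate 1 (0.55). Libraries are called biological triplicates by the series. No 2 libraries of a group agreed within sampling noise.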

Additional observations from a re-analysis of the deposited data

How the results depend on the processing

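The 4 troponin genes kept their direction under all 18 alternatives. All genes of the table had been chosen for a change on these libraries, which favours a kept direction. The share of the 1651 tested genes that was higher in MF was 63.7% as reported, with TMM scaling and without any single library. With median-of-ratios scaling that share was 59.6%. Over the 19069 tests recovered from the authors' p-values, edgeR called 0 genes of the table (1613 had an unadjusted p under 0.05; DESeq2 called 598 and the replicate block 504 over the same tests). The log2 fold changes there are as reported (3.51 for Tnnt2, 3.57 for Tnni1, 2.32 for Tnni3 and -1.06 for Tnnt1), with adjusted p of 0.128, 0.164, 0.273 and 0.559, upper bounds since ranks are counted in the table. Over these tests DESeq2 called Tnnt2, Tnni1 and Tnni3 and not Tnnt1 (-1.06, adjusted p = 0.249), and the replicate block called 2, Tnnt2 and Tnni1, and not Tnni3 (2.05, 0.264) or Tnnt1 (-1.11, 0.289). The replicate block over the 1651 genes called all 4 and changed no call. Tnni3 was not called with TMM (1.73) or median-of-ratios scaling (1.49). Tnnt1 was not called without a filter (-1.06, adjusted p = 0.0501) or with one at 2 FPKM (-1.06, 0.0640). With each library left out in turn the log2 fold change ran from 2.88 to 4.30 for Tnnt2, 3.03 to 4.39 for Tnni1, 1.47 to 2.71 for Tnni3 and -1.39 to -0.91 for Tnnt1, and 0 to 4 of the 4 were called: 0 without MF replicate 3, where the test called 0.727% of the table, and 2 without NC replicate 1. Of the table it called 641, 735, 1012, 447, 1578 and 12 genes without NC replicates 1, 2 and 3 and MF replicates 1, 2 and 3. Without both replicate 2 libraries it called 1609 genes, among them all 4 troponin genes. The log2 fold changes were then 3.47 for Tnnt2, 3.77 for Tnni1, 1.34 for Tnni3 and -1.38 for Tnnt1. TMM scaling called 880, median-of-ratios 665. The cause was not tested. Among the ratios, Tnnt2 over total troponin I changed sign with 1 FPKM added, to -0.19 from 0.23. The replicate block gave p of 0.5, 0.5, 0.25 and 0.5 for the 4 ratios, where 0.25 is the smallest possible with 3 pairs.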

Other observations

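The neighbourhoods of the 2 troponin pairs held further genes of the table. Within 500 kb of the Tnni1 and Tnnt2 pair on chromosome 1, 3 of 20 protein-coding genes were in the table; the third, Kif21b, which encodes a kinesin, was higher in MF. Within 500 kb of the Tnnt1 and Tnni3 pair on chromosome 7, 7 of 40 were in the table. Of the 5 that are not troponins, Eps8l1 and Ssc5d were higher and Isoc2a, Shisa7 and Ube2s lower in MF, so both directions occurred around that pair as they did within it.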
